A study of Homo sapiens with 6 samples.

Results

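The genes described here are 35 genes of protein folding, quality control and stress sensing in the endoplasmic reticulum (ER), taken by gene name from the 60623 genes listed in each library. Each of the 35 names matched 1 entry, and all 35 passed the filter of at least 1 TPM in 3 or more of the 6 libraries. The samples were hepatocyte-like cells at day 19, labelled hepatoblasts, that had been derived from H9, an established human embryonic stem cell line. The control group was 3 libraries exposed to the vehicle, 0.1% DMSO. The treated group was 3 libraries exposed to the perfluorinated compound HFPO-TA (hexafluoropropylene oxide trimer acid), with a dose printed as 10 and a unit too garbled to read. No exposure time is given, and a matched share of DMSO is not recorded for the HFPO-TA libraries. All 6 libraries rest on 1 cell line, and the labels do not say whether replicates were separate cultures, so the spread behind each p-value is that between libraries and may be technical. The series title names liver toxicity of HFPO-TA as its subject.

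Secreted and membrane proteins enter the ER through the Sec61 channel, are folded there by chaperones and disulfide-forming enzymes, and leave in COPII-coated vesicles. Proteins that fail to fold are pulled back to the cytosol and destroyed, a route called ER-associated degradation. Unfolded protein activates the sensors IRE1 (encoded by ERN1), ATF6 and PERK, whose transcription factors raise chaperone and degradation genes; this is the unfolded protein response, and hepatocytes, which secrete most plasma proteins, carry a large ER. Of the 35 genes, 9 encode chaperones and co-chaperones, 7 lectin chaperones and disulfide enzymes, 10 proteins of ER-associated degradation, 3 translocation and export proteins, and 6 sensors and transcription factors.

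The promoters of some of these genes are known for the ER stress response element (ERSE), bound by ATF6 together with NF-Y, and for its short form ERSE-II. RefSeq promoters (GRCh38.p14, 250 bases before to 50 after the start) were found for 31 of the 35 genes. ERSE was searched as CCAAT and CCACG with any 9 bases between them, and ERSE-II as ATTGG and CCACG with any 1 base between them, both on both strands. No promoter of the set held both patterns. ERSE was present in 7 of the 31 promoters (22.6%), against 0.081% of all 27305 promoters of 300 bases, and ERSE-II in 3 of 31 (9.7%), against 0.055%. Among the 10915 promoters of tested genes the shares were 0.128% and 0.092%. Since promoters of some of these genes are known for the element, the high share is a description and not a finding of the search. Of the 37 promoters in all that held either pattern, 10 belonged to these genes. Neither pattern was in the other 21 promoters of the set. For some of these, among them MANF, DNAJB11 and PDIA6, the searched window lay mostly or wholly inside the gene in the GENCODE 29 annotation. The same held for CANX, CRELD2 and HSP90B1, which had a match. Promoters at other starts of a gene were not searched. The matches are shown because 10 genes of the set hold them and few other promoters do; each is written in the orientation of the pattern, its fixed letters in capitals, with positions in GRCh38.p14:
CALR, ERSE, chr19:12938384-12938402: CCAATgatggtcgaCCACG
CANX, ERSE, chr5:179698778-179698796: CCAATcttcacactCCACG
CRELD2, ERSE, chr22:49918554-49918572: CCAATccgagttcgCCACG
ERO1B, ERSE, chr1:236282183-236282201: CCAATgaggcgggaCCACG
HSP90B1, ERSE, chr12:103930216-103930234: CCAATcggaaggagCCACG
HSP90B1, ERSE, chr12:103930321-103930339: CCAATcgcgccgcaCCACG
HSPA5, ERSE, chr9:125241391-125241409: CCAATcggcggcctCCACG
XBP1, ERSE, chr22:28800603-28800621: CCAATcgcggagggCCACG
HERPUD1, ERSE-II, chr16:56932025-56932035: ATTGGgCCACG
HYOU1, ERSE-II, chr11:119057380-119057390: ATTGGaCCACG
HYOU1, ERSE-II, chr11:119057274-119057284: ATTGGaCCACG
SDF2L1, ERSE-II, chr22:21642114-21642124: ATTGGtCCACG

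By role, either pattern was present in 5 of 9 promoters of chaperones and co-chaperones, 3 of 6 of lectin chaperones and disulfide enzymes, 1 of 8 of degradation genes (HERPUD1), 0 of 2 of translocation and export genes and 1 of 6 of sensors and factors (XBP1). A match is a description of letters and not a bound site. The promoters of HERPUD1, XBP1 and HSPA5 follow, because HERPUD1 and XBP1 had the smallest p-values of the set and HSPA5 is the best known target of the response. Bases before the start are shown up to the nearest GENCODE 29 exon of the gene, 5′ to 3′ on the gene's strand (GRCh38.p14). Sites that differ from a pattern in any fixed letter were not searched for, so more than the marked elements may be present. Capitals mark exact matches to ERSE or ERSE-II. In HERPUD1, upstream of ERSE-II, they also mark a match on the other strand to TGATG, any base and AA. This is a C/EBP-ATF composite pattern of the kind bound by ATF4. It lay in 1 of the 31 promoters (3.2%), against 3.673% of all promoters and 1.557% of those of tested genes:
HERPUD1, chr16:56931892-56932047, plus strand: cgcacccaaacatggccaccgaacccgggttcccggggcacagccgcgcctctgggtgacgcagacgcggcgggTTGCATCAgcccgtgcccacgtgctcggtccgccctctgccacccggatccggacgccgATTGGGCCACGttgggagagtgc
XBP1, chr22:28800598-28800819, minus strand: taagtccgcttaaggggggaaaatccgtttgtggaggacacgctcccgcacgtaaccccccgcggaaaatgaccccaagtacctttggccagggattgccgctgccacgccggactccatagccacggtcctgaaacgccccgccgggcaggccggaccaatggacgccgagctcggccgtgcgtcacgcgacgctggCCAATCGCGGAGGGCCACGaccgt
HSPA5, chr9:125241344-125241593, minus strand: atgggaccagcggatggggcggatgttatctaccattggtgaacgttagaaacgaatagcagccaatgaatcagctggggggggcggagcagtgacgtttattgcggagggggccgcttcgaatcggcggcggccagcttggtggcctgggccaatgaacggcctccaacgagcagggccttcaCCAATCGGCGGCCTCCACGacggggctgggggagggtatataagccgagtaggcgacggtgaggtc

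No gene of the set passed the test (limma on log2(TPM + 1) over 15664 genes, Benjamini-Hochberg adjusted p under 0.05): 0 rose, 0 fell and 35 did not pass, where 0.492% of all tested genes did (0.185% higher and 0.306% lower). Before adjustment, 2 of the 35 had a p under 0.05, HERPUD1 and XBP1, both on the higher side, against 12% of all tested genes (5.45% higher and 6.56% lower). Groups did not overlap for 4 of the 35, HERPUD1, DERL2 and XBP1 on the higher side and EDEM2 on the lower, against 17.9% of all tested genes (8.55% higher and 9.4% lower). The log2 fold change, taken on log2(TPM + 1) as HFPO-TA minus DMSO, was above 0 for 23 of the 35, against 48.3% of all tested genes. Its median was 0.05 over the 35 genes and -0.01 over all tested genes, with a range from -0.21 (ERO1B) to 0.45 (HERPUD1). For the unadjusted p and the non-overlap, the count of the 35 was below the background share with both directions pooled and close to it on the higher side. With so low a share of genes called, a count of 0 in 35 is near the background as well. The median log2 fold change was 0.07 over the 10 genes with ERSE or ERSE-II in the searched promoter and 0.02 over the 21 without a match there. The 2 patterns went opposite ways when taken apart. For ERSE the median was 0.10 over 7 genes with it and 0.02 over 24 without it. For ERSE-II it was -0.03 over 3 genes with it and 0.04 over 28 without it.

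The 35 genes together held 4911, 5040 and 4790 TPM in DMSO replicates 1, 2 and 3 and 4741, 5196 and 5308 TPM in HFPO-TA replicates 1, 2 and 3. The lowest and the highest of the 6 sums were both HFPO-TA libraries. As a share of all TPM the set took 0.493% ± 0.013 (SD, n = 3) under DMSO and 0.510% ± 0.030 (SD, n = 3) under HFPO-TA. TPM is scaled by gene length, so levels can be compared between genes. P4HB was the most abundant, ranked 153 of 15664 in the DMSO mean, followed by HSP90B1 and CALR at ranks 220 and 221. DERL3 was the least abundant, at 0.80 to 2.44 TPM.

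**Figure D1:**
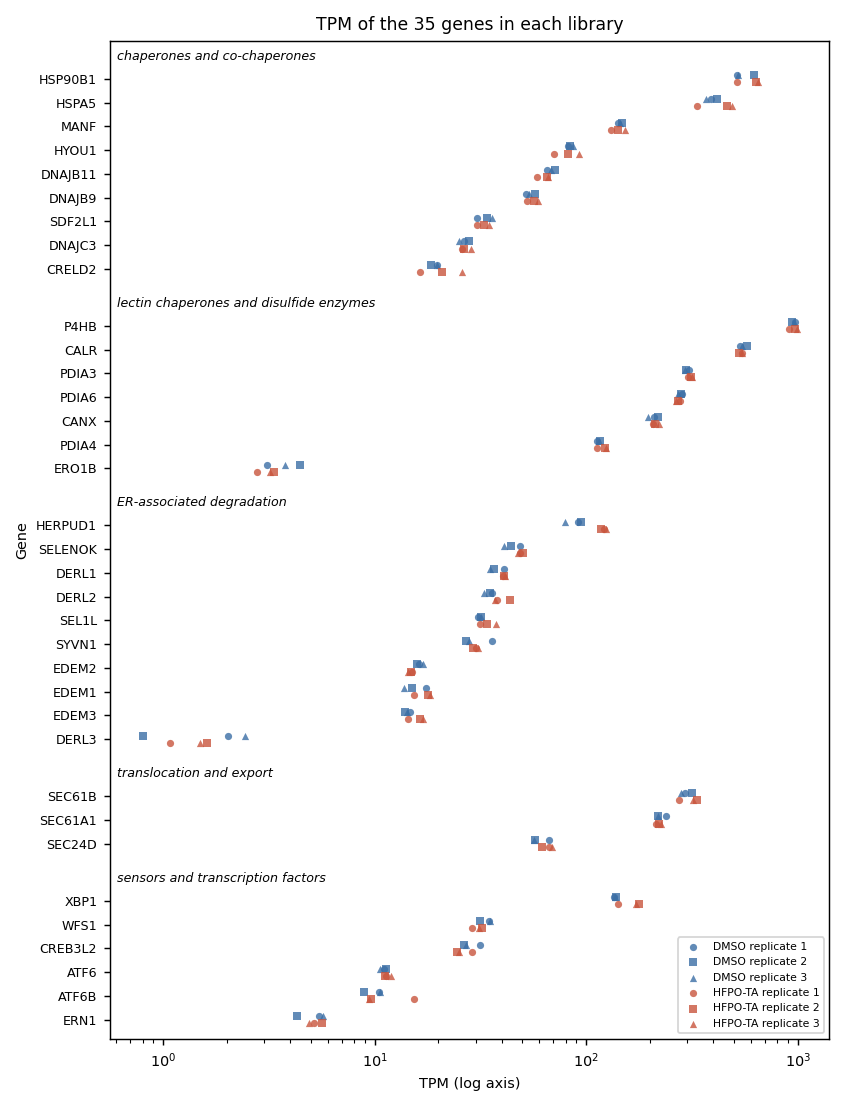
TPM of each of the 35 genes (log axis), grouped by role and ordered by DMSO mean within a role; each point is 1 library, blue for DMSO and red for HFPO-TA, with a marker shape for each replicate. The groups lie side by side for most genes, while the HERPUD1 points of HFPO-TA (118 to 124 TPM) lie above those of DMSO (79.8 to 94.2 TPM).

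Among the 9 chaperones and co-chaperones 0 passed the test, 5 lay above 0 and 4 below, and the median log2 fold change was 0.02. HSPA5 encodes BiP, the ER Hsp70 that also holds the sensors inactive. It stood at 388, 415 and 369 TPM in DMSO replicates 1, 2 and 3 and at 335, 462 and 492 TPM in HFPO-TA replicates 1, 2 and 3. The HFPO-TA libraries lay on both sides of the DMSO range, replicate 1 below it and replicates 2 and 3 above it. The log2 fold change was 0.12 (SE 0.14, 95% interval -0.21 to 0.44, adjusted p = 0.809). With 1 library left out the log2 fold change of HSPA5 ran from 0.010 (without HFPO-TA replicate 3, adjusted p = 0.993) to 0.287 (without HFPO-TA replicate 1, adjusted p = 0.0797), and it was called in none of these fits.

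HSP90B1 encodes GRP94, the ER Hsp90, and was the most abundant gene of this role. It stood at 518, 622 and 520 TPM with DMSO and at 518, 635 and 649 TPM with HFPO-TA (log2 fold change 0.12, SE 0.11, 95% interval -0.13 to 0.36). HFPO-TA replicate 1 was level with DMSO replicate 1, the lowest DMSO library, and the groups overlapped. DNAJB11, an ER J protein that serves BiP, stood at 65.1, 71.6 and 68.2 TPM with DMSO and at 58.9, 65.2 and 66.1 TPM with HFPO-TA. Its log2 fold change was -0.11 (SE 0.07, adjusted p = 0.646), the smallest p of the role. DNAJB11 shares 451 exon bases on the same strand with AC068631.2, whose group means were 29.7 TPM with DMSO and 19.4 TPM with HFPO-TA, so its value is uncertain. DNAJB9, a J protein known as a target of spliced XBP1, stood at 51.9, 57.4 and 53.7 TPM with DMSO and at 52.8, 56.6 and 59.5 TPM with HFPO-TA, and the groups overlapped (95% interval -0.13 to 0.22).

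The other 5 genes of the role were HYOU1, which exchanges nucleotide on BiP, DNAJC3, SDF2L1, MANF, a secreted ER stress protein, and CRELD2. Their log2 fold changes ran from -0.05 (HYOU1) to 0.10 (CRELD2), and the groups overlapped for each. All 9 genes of this role had the lowest HFPO-TA value in replicate 1 and the highest in replicate 3. Of the 7 lectin chaperones and disulfide enzymes, 5 had their lowest HFPO-TA value in replicate 1 and 5 their highest in replicate 3. Over all 15664 tested genes, 26.32% had their lowest HFPO-TA value in replicate 1 and 27.82% their highest in replicate 3. In DMSO, 6 of the 9 were lowest in replicate 1, against 23.42% of all tested genes, and 6 of the 9 were highest in replicate 2, against 27.69%.

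Library HFPO-TA replicate 1 stood apart from HFPO-TA replicates 2 and 3 in other genes as well. The 8 stromal markers (COL1A1, COL1A2, COL3A1, PDGFRB, DCN, LUM, ACTA2 and THY1) summed to 2173 TPM there and to 1034 and 1002 TPM in HFPO-TA replicates 2 and 3, and to 1899, 1233 and 1420 TPM in DMSO replicates 1, 2 and 3. All 8 were at 1 TPM or more in at least 3 libraries, and COL3A1 led them at 547 to 1191 TPM. For PDGFRB (17.0 TPM) and THY1 (14.7 TPM) HFPO-TA replicate 1 lay inside the DMSO range, and for the others it lay above that range. The part of the stromal difference in the chaperone values was not tested. In bulk RNA, fewer cells of a type and less RNA per cell cannot be told apart. A letter in the names of the deposited files, which the labels do not explain, also parts replicate 1 from replicates 2 and 3 in both groups. Without replicate 1 of both groups, the median log2 fold change was 0.05 for the 9 chaperones, with 7 above 0 and 0 passing the test.

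**Figure D2:**
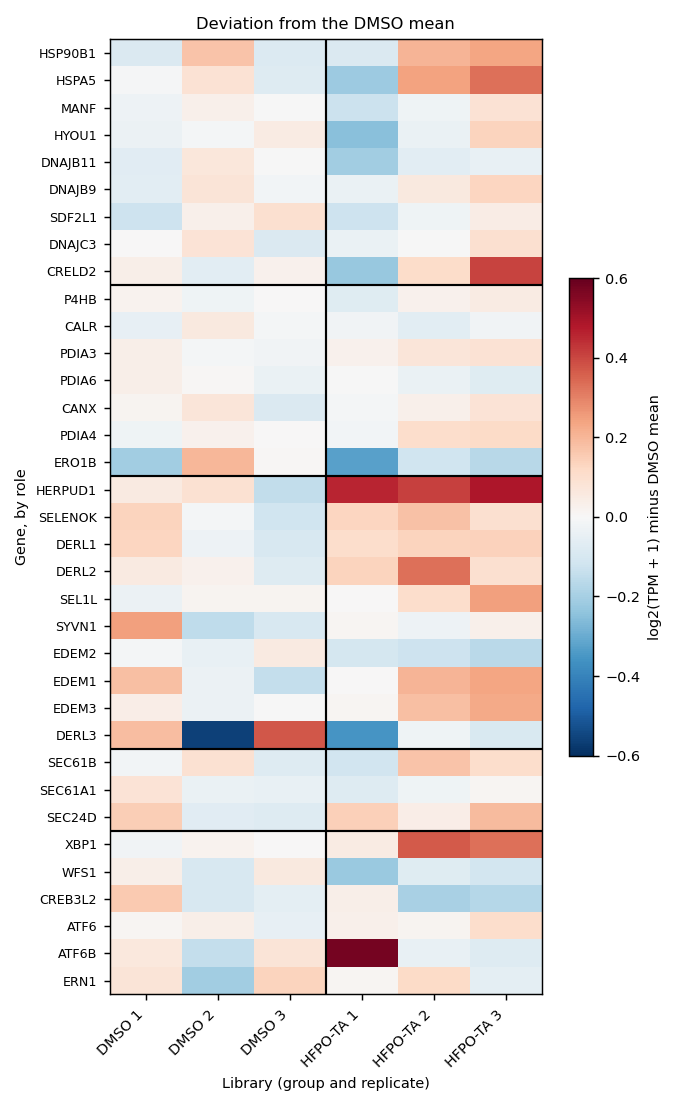
Deviation of each gene from its DMSO mean on the log2(TPM + 1) scale (colour), for the 35 genes in rows by role and the 6 libraries in columns; black lines part roles and groups. The 9 chaperone rows at the top are bluest in HFPO-TA replicate 1 within that group and reddest in replicate 3, with role medians of -0.13 and 0.13, and the HERPUD1 row is red in each HFPO-TA library.

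Among the 7 lectin chaperones and disulfide enzymes 0 passed the test, 4 lay above 0 and 3 below, and the median was 0.00. P4HB encodes protein disulfide isomerase, which forms and rearranges disulfide bonds. It stood at 972, 941 and 959 TPM with DMSO and at 909, 975 and 990 TPM with HFPO-TA, and the DMSO values lay within the HFPO-TA range. The 95% interval of its log2 fold change ran from -0.12 to 0.12. PDIA3, the disulfide isomerase that works with calnexin and calreticulin, stood at 306, 296 and 295 TPM with DMSO and at 304, 314 and 318 TPM with HFPO-TA (log2 fold change 0.06, 95% interval -0.06 to 0.18). PDIA4 stood at 112, 117 and 115 TPM with DMSO and at 113, 123 and 124 TPM with HFPO-TA (log2 fold change 0.07, SE 0.06). For both, HFPO-TA replicates 2 and 3 lay above the DMSO range and replicate 1 lay inside it.

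ERO1B, an oxidase that recharges disulfide isomerases, was far less abundant, at 3.09, 4.44 and 3.76 TPM with DMSO and 2.77, 3.35 and 3.21 TPM with HFPO-TA. Its log2 fold change of -0.21 was the lowest of the 35, with a wide interval (-0.57 to 0.16), and the groups overlapped. The lectin chaperones CALR (calreticulin) and CANX (calnexin), which hold glycoproteins until they are folded, and PDIA6 had log2 fold changes of -0.04, 0.03 and -0.04, with 95% intervals between -0.16 and 0.18.

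ER-associated degradation had the highest median of the roles, 0.13, against 0.01 for the 16 chaperones and folding enzymes together and 0.04 for the sensors and factors. The difference between roles is a description, since genes are not replicates. Of the 10 genes 0 passed the test, 8 lay above 0 and 2 below. By library, their median deviation from the DMSO mean was 0.09, -0.03 and -0.09 with DMSO and 0.01, 0.15 and 0.12 with HFPO-TA, so the groups overlapped. The 19 other degradation genes, described further below, had a median log2 fold change of 0.01, with 10 above 0 and 9 below. HERPUD1 encodes Herp, a membrane protein that assembles the degradation complex around the ubiquitin ligase HRD1. It stood at 92.0, 94.2 and 79.8 TPM in DMSO replicates 1, 2 and 3 and at 122, 118 and 124 TPM in HFPO-TA replicates 1, 2 and 3. Every HFPO-TA library lay above every DMSO library, and HFPO-TA replicate 1 was as high as the other two. The log2 fold change was 0.45 (SE 0.08, 95% interval 0.27 to 0.63), which missed the threshold (adjusted p = 0.0595), and its p ranked 100 of 15664.

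The HERPUD1 difference passed the test when replicate 1 had a term of its own in the fit (adjusted p = 0.045, where 1.32% of tested genes passed). It also passed when genes under 5 TPM were removed (adjusted p = 0.0363, where 1.21% passed). With libraries left out the log2 fold change of HERPUD1 ran from 0.377 to 0.495 and its adjusted p from 0.0542 to 0.23. HERPUD1 was called in 2 of 17 alternative settings. Its adjusted p was 0.185 with no filter on low values, 0.174 with neither variance trend nor robust estimation and 0.0732 with median-of-ratios scaling. HERPUD1 lies on chromosome 16 from 56932048 to 56944863, on the plus strand (GENCODE 29, GRCh38), and shares no exon bases there with another listed gene.

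DERL2, a membrane protein of the retrotranslocation complex, stood at 36.0, 35.2 and 32.8 TPM with DMSO and at 38.0, 43.8 and 37.1 TPM with HFPO-TA. The groups did not overlap, but by little (log2 fold change 0.19, SE 0.09, adjusted p = 0.457), and DERL2 shares 301 exon bases with MIS12, an opposite-strand gene with group means of 11.1 and 11.3 TPM. SELENOK, a selenoprotein that binds derlins, stood at 48.9, 44.1 and 40.9 TPM with DMSO and at 48.8, 50.3 and 47.7 TPM with HFPO-TA, and the groups overlapped (log2 fold change 0.13, SE 0.08). EDEM2, which trims mannose from misfolded glycoproteins, was the gene of this role with groups apart on the lower side; it stood at 16.2, 15.8 and 17.0 TPM with DMSO and at 15.1, 14.9 and 14.4 TPM with HFPO-TA (log2 fold change -0.13, SE 0.09, adjusted p = 0.623). Its relatives EDEM1 and EDEM3 had log2 fold changes of 0.15 and 0.14 with overlapping groups, and none of the 3 passed the test.

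The ubiquitin ligase SYVN1 (HRD1) and its partner SEL1L had log2 fold changes of 0.00 and 0.12, DERL1 0.13 and DERL3 -0.16. SYVN1 shares 398 exon bases with FAU, a ribosomal protein gene on the same strand with group means of 1284 and 1251 TPM (DMSO and HFPO-TA), and DERL3 shares 2923 with SMARCB1 on the opposite strand, with means of 60.2 and 55.8 TPM, so both values are uncertain. Summed over the 10 genes, degradation stood at 335, 314 and 296 TPM with DMSO and at 357, 367 and 370 TPM with HFPO-TA, a difference in means of 49.4 TPM. Without HERPUD1 the sums were 243, 220 and 216 TPM with DMSO and 235, 249 and 245 TPM with HFPO-TA. The groups were apart with HERPUD1 and overlapped without it, the difference in means then being 16.9 TPM.

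**Figure D3:**
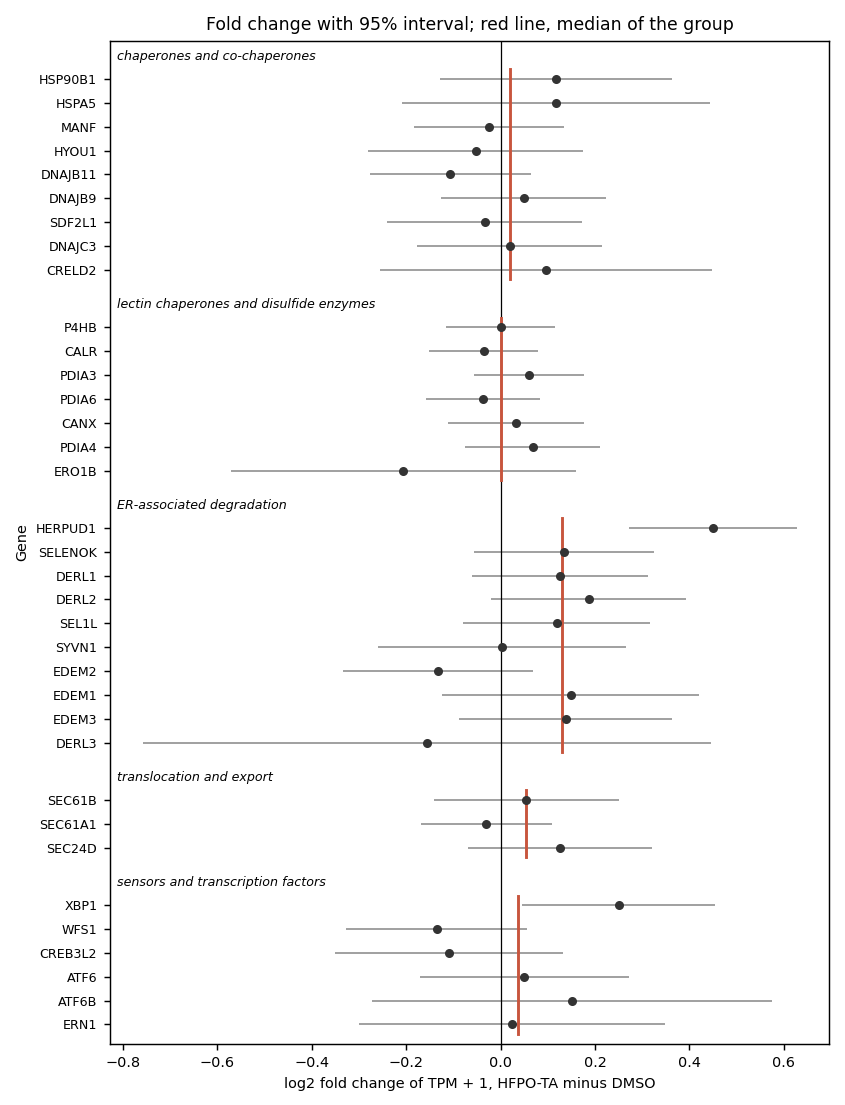
Log2 fold change of each gene (point) with its 95% interval (grey line) from limma on log2(TPM + 1), positive where HFPO-TA was higher, by role; the red line is the median of the role. The intervals of HERPUD1 (0.27 to 0.63) and XBP1 (0.05 to 0.45) lie above 0 and the others include 0; the intervals are not adjusted for the number of genes.

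The 3 translocation and export genes did not pass the test. SEC61A1, the pore of the Sec61 channel, stood at 239, 219 and 218 TPM with DMSO and at 213, 221 and 227 TPM with HFPO-TA, and its subunit SEC61B at 294, 317 and 283 TPM and at 275, 335 and 321 TPM. Both had overlapping groups, with log2 fold changes of -0.03 (SE 0.06) and 0.05 (SE 0.09). SEC24D, a cargo-selecting COPII coat protein, stood at 66.8, 57.5 and 57.0 TPM with DMSO and at 66.6, 62.1 and 68.9 TPM with HFPO-TA (log2 fold change 0.13, SE 0.08). Its DMSO replicate 1 lay inside the HFPO-TA range, so the groups overlapped.

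Among the 6 sensors and transcription factors 0 passed the test, 4 lay above 0 and 2 below. XBP1 encodes the transcription factor whose mRNA is spliced by IRE1; gene-level TPM does not separate spliced from unspliced mRNA. It stood at 135, 139 and 137 TPM in DMSO replicates 1, 2 and 3 and at 142, 177 and 173 TPM in HFPO-TA replicates 1, 2 and 3. The groups did not overlap, and HFPO-TA replicate 1 lay just above the DMSO range while replicates 2 and 3 lay well above it. The log2 fold change was 0.25 (SE 0.09, 95% interval 0.05 to 0.45, adjusted p = 0.308). XBP1 passed the test without HFPO-TA replicate 1 (0.351, adjusted p = 0.0322, where 1.93% of tested genes passed) and without replicate 1 of both groups (0.342, adjusted p = 0.0461, where 1.78% passed). It was called in none of the other 15 settings, and without HFPO-TA replicate 2 it was 0.19 (adjusted p = 0.653) and without HFPO-TA replicate 3 0.209 (adjusted p = 0.652). XBP1 lies on chromosome 22 from 28794555 to 28800597, on the minus strand (GENCODE 29, GRCh38).

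The sensor genes of this set, ATF6 and ERN1, were at low levels and close between groups. ATF6, a membrane-bound factor released by cleavage in the Golgi, stood at 11.1, 11.3 and 10.6 TPM with DMSO and at 11.3, 11.1 and 11.9 TPM with HFPO-TA (95% interval -0.17 to 0.27). ERN1 stood at 5.46, 4.31 and 5.72 TPM and at 5.19, 5.64 and 4.89 TPM, so that all 3 HFPO-TA values lay inside the DMSO range (95% interval -0.30 to 0.35). WFS1, an ER membrane protein that restrains ATF6, stood at 34.7, 31.6 and 35.2 TPM with DMSO and at 28.8, 32.1 and 31.2 TPM with HFPO-TA (log2 fold change -0.14, SE 0.08). CREB3L2, an ATF6-like factor of secretory cells, stood at 31.6, 26.4 and 27.1 TPM and at 29, 24.5 and 25.0 TPM (log2 fold change -0.11, SE 0.11), and the groups overlapped for both. ATF6B, the relative of ATF6, had a single high value, 15.3 TPM in HFPO-TA replicate 1, against 8.93 to 10.6 TPM in the other 5 libraries. ATF6B shares 71 exon bases on the same strand with TNXB, so its value is uncertain. The group means of TNXB were 8.01 TPM with DMSO and 6.90 TPM with HFPO-TA. Without XBP1 the other 5 genes of the role summed to 93.3, 82.5 and 89.2 TPM with DMSO and to 89.6, 83.0 and 82.4 TPM with HFPO-TA.

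**Figure D4:**
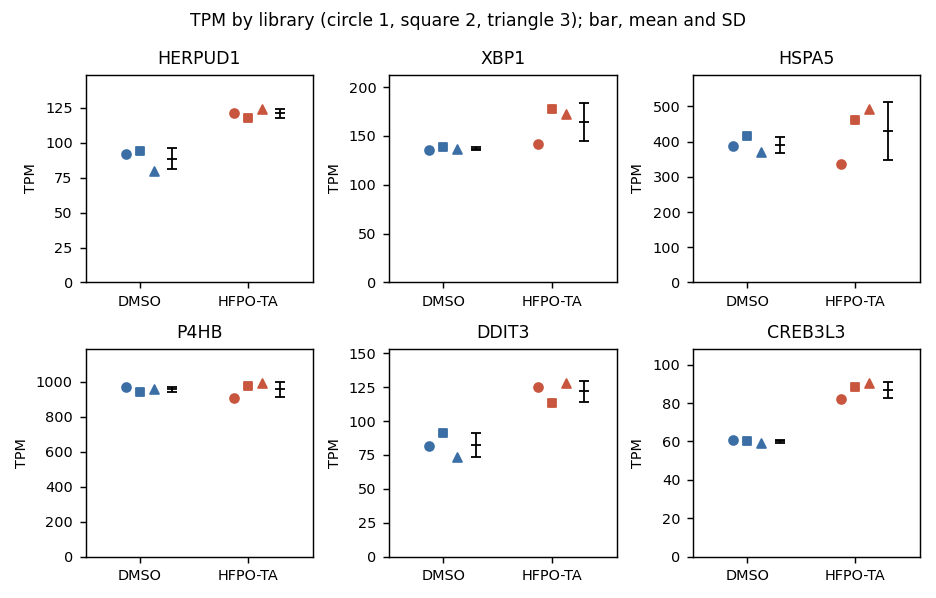
TPM of HERPUD1, XBP1, HSPA5, P4HB, DDIT3 and CREB3L3 in each library (points; circle, square and triangle for replicates 1, 2 and 3), with the mean and SD of each group (n = 3) as a bar; each axis starts at 0. HERPUD1, DDIT3 and CREB3L3 are apart between groups in all 3 replicates, XBP1 is apart mainly in replicates 2 and 3, and HSPA5 and P4HB overlap.

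A further 90 genes of the pathway were read from 5 lists, and all 90 passed the filter; 1 rose, 0 fell and 89 did not pass, against 0.492% of all tested genes. The gene that rose was CREB3L3, the liver's membrane-bound relative of ATF6, which also governs lipid genes. It stood at 60.9, 60.3 and 59.2 TPM with DMSO and at 82.1, 88.4 and 90.2 TPM with HFPO-TA (log2 fold change 0.52, SE 0.07, adjusted p = 0.0272). The groups did not overlap, yet 5 of the 6 fits without 1 library lost the call (adjusted p up to 0.19), all but that without HFPO-TA replicate 1. The call was also lost with no filter on low values (adjusted p = 0.105) and with neither variance trend nor robust estimation (adjusted p = 0.104). Median-of-ratios scaling (adjusted p = 0.0575) and a term for replicate number in the fit (adjusted p = 0.061) lost it as well. The other 12 genes of that list did not pass. Among them, EIF2AK3 (PERK) stood at 20.25, 20.22 and 17.75 TPM with DMSO and at 20.54, 20.7 and 21.02 TPM with HFPO-TA. Its groups did not overlap (log2 fold change 0.09, SE 0.09). In the list of 13, groups were apart for 3 genes on the higher side and 0 on the lower, against 8.55% and 9.4% of all tested genes. The next smallest p after CREB3L3 belonged to NFYA, a subunit of NF-Y, at 15.6, 16.9 and 14.3 TPM and at 16.6, 17.1 and 18.3 TPM.

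Among the PERK arm genes and ATF4 targets, read as 1 list, 0 of 11 genes passed. Of these, 7 lay above 0 and 4 below, from -0.20 to 0.79, and the median log2 fold change was 0.11. DDIT3 encodes CHOP, a pro-apoptotic transcription factor. It stood at 81.6, 91.3 and 73.8 TPM with DMSO and at 125, 113 and 128 TPM with HFPO-TA (log2 fold change 0.57, SE 0.09, adjusted p = 0.0506). Every HFPO-TA library lay above every DMSO library, as for HERPUD1. DDIT3 passed when genes under 5 TPM were removed (adjusted p = 0.0283) and when replicate 1 had a term of its own (adjusted p = 0.045), 2 of 17 settings in all, and its adjusted p ran up to 0.229 in the others. DDIT3 shares 355 exon bases with MARS on the opposite strand, with group means of 102 and 124 TPM, so without knowledge of strand its value is uncertain. CEBPB, a transcription factor of the liver, stood at 21.5, 14.4 and 15.2 TPM with DMSO and at 23.6, 26.7 and 41.9 TPM with HFPO-TA (adjusted p = 0.24), the groups being apart but widely spread.

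Of 28 other translocation and export genes 0 passed, while 24 lay above 0, with a median of 0.09. SEC62, which feeds the Sec61 channel, stood at 63.3, 65.3 and 61.9 TPM with DMSO and at 72.5, 76.5 and 76.5 TPM with HFPO-TA (log2 fold change 0.24, SE 0.06, adjusted p = 0.174). SEC24A, a COPII coat protein, stood at 73.8, 67.7 and 64.5 TPM and at 80.4, 75.5 and 79.6 TPM (log2 fold change 0.19, SE 0.07). Both had groups that did not overlap, as did 5 of the 28 on the higher side and 0 on the lower, against 8.55% and 9.4% of all tested genes.

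Among 19 other folding genes 0 passed and the median was 0.00. UGGT1, which tags misfolded glycoproteins for another round of folding, stood at 10.3, 11.7 and 11.2 TPM with DMSO and at 13.4, 12.9 and 15.4 TPM with HFPO-TA (log2 fold change 0.31, SE 0.11, adjusted p = 0.308). PPIB, a prolyl isomerase, stood at 527, 583 and 567 TPM and at 496, 518 and 528 TPM (log2 fold change -0.12, SE 0.06). Among 19 other degradation genes 0 passed and the median was 0.01, with UBE2G2, a ubiquitin-conjugating enzyme, at a log2 fold change of -0.17 (SE 0.08). The groups did not overlap for UBE2G2 and overlapped for PPIB.

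In each library 15383 to 15905 genes stood at 1 TPM or more, and over all 15664 tested genes 29 rose and 48 fell. All 8 hepatocyte markers passed the filter, led by AFP at 63150 to 79063 TPM; ALB, albumin, was at 101 to 129 TPM with DMSO and 54.1 to 73.5 TPM with HFPO-TA. Their sum was 111129 to 123237 TPM with DMSO and 98467 to 105996 TPM with HFPO-TA. Of the 8, 1 fell by the test (FGB), 7 lay below 0 with a median log2 fold change of -0.25 over the list, and 6 had both an unadjusted p under 0.05 and groups apart on the lower side, against 6.56% and 9.4% of all tested genes. This moved with the group, and its part in the ER values was not tested. Of 7 pluripotency markers, POU5F1, NANOG and SOX2 did not pass the filter, with NANOG at 0 to 0.14 TPM, while LIN28A, DPPA4, TDGF1 and DNMT3B did, at group means of 5.75 to 30.0 TPM. LIN28A and DNMT3B had groups apart on the lower side, 0 of the 4 passed the test, and the sum of the 7 was 51.3 to 54.8 TPM with DMSO and 53.8 to 58.1 TPM with HFPO-TA. Of 5 gut markers, MUC2 did not pass the filter and the other 4 lay below 0 with 0 passing the test. TFF3 (group means 4.03 and 1.53 TPM) and CDH17 (64.1 and 50.01 TPM) had groups apart, CDX2 and VIL1 did not, and the sum of the 5 was 329 to 350 TPM with DMSO and 303 to 318 TPM with HFPO-TA. The part of these differences in the ER values was not tested either. Mitochondrially encoded genes took 6.24% to 6.45% of TPM with DMSO and 6.30% to 6.80% with HFPO-TA.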

How the data were processed

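RNA sequencing of 6 libraries was used, 3 with DMSO and 3 with HFPO-TA, grouped by their titles. The deposited values are headed FPKM but sum to 995690 to 996186 in each library, so they were read as TPM made by the authors; per the submitters' processing notes, RSEM, HISAT and Bowtie2 were used with GRCh38.p13, without version or role. Strand and annotation: not given in the sources used here. Since TPM holds no read numbers, the depth of each library is unknown.

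limma 3.58.1 in R 4.3.3 was fitted to log2(TPM + 1) of the 15664 genes that reached 1 TPM in 3 or more libraries, with treatment as the only term and a trended, robust variance. Calls needed an adjusted p under 0.05, 2-sided; a pseudocount of 1 understates the change of low genes. The fit was tested on simulated data. The 35 genes and the gene lists were chosen with earlier results of these data known. Per-library values are given for the 3 smallest p of each role, the most abundant gene of each role and HSPA5, HERPUD1, XBP1, ATF6, ERN1 and DNAJB9; EDEM2 and ATF6B were added after their values were seen. Of the other pathway lists, called genes and the 2 smallest p of each are named, except 1 gene that is not reported here. Positions and exon overlaps came from GENCODE 29 and promoters from RefSeq; 11 of the 35 genes share exon bases with a gene at a mean of 1 TPM or more. Figures were drawn with matplotlib 3.10.9. Alternatives covered the pseudocount, filter, variance estimate, scaling, replicate number, a possible batch and each library left out.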

Additional observations from a re-analysis of the deposited data

How the results depend on the processing

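Over all genes the number called was 77, and it was 10 with no filter, 29 with a minimum of 0.1 TPM, 130 with a minimum of 5 TPM, 11 with neither variance trend nor robust estimation, 207 with a term for replicate 1, 265 without replicate 1 of both groups, 32 with median-of-ratios and 39 with upper-quartile scaling, and 5 to 296 with libraries left out; the filters test other numbers of genes, and otherwise the cause was not tested. Of the 35 genes, 0 were called, and 1 with the minimum of 5 TPM and with the term for replicate 1 (HERPUD1 in both). With libraries left out the number ran from 0 to 1, the 1 being XBP1 without HFPO-TA replicate 1 or without replicate 1 of both groups. The call of CREB3L3 was lost (0 genes of its list) with no filter, with neither trend nor robust estimation, and with median-of-ratios scaling, and its list ran from 0 to 1 with libraries left out. Among the PERK arm genes and ATF4 targets 1 gene (DDIT3) was called with the minimum of 5 TPM and with the term for replicate 1. Other translocation and export genes ran from 0 to 1 with libraries left out.

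Replicate numbers were not used to pair libraries. Deviations from the group mean correlated at 0.184, 0.123 and 0.028 for same-numbered libraries, and each library but HFPO-TA replicate 3 correlated best with its own number. With the replicate block 30 genes were called over all genes, 0 of the 35 (HERPUD1 at an adjusted p of 0.108) and 0 of the list that holds CREB3L3, whose own adjusted p was 0.061.

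With libraries left out the median log2 fold change ran from 0.008 to 0.066 over the 35 genes, from -0.022 to 0.049 for chaperones and folding enzymes, from 0.077 to 0.2 for degradation, from -0.004 to 0.131 for translocation and export and from -0.016 to 0.059 for sensors and factors. With 1 library left out the sign of the log2 fold change turned for ATF6B (-0.06 to 0.266), CANX (-0.01 to 0.07), CRELD2 (-0.058 to 0.258), DERL3 (-0.436 to 0.031), DNAJC3 (-0.023 to 0.06), ERN1 (-0.08 to 0.09), HYOU1 (-0.147 to 0.047), MANF (-0.08 to 0.029), P4HB (-0.024 to 0.038), SDF2L1 (-0.097 to 0.014), SEC61A1 (-0.052 to 0.012), SEC61B (-0.004 to 0.139), SYVN1 (-0.072 to 0.128). Without replicate 1 of both groups it turned for HYOU1 (0.03), MANF (0.014), DERL3 (0.035), SEC61A1 (0.036), ATF6B (-0.029). No setting called any of these genes. P4HB was at -0.002 with upper-quartile scaling. The absence of depth in TPM limits how firmly low genes such as DERL3 and ERO1B can be read, and 3 libraries a group limit the rest.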
